A study of Homo sapiens with 48 samples.

Results

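The 10 genes described here are the EGF-family ligands AREG, EREG, HBEGF, TGFA, BTC and EGF and the receptors EGFR, ERBB2, ERBB3 and ERBB4, taken by symbol from a table of 61815 genes. The family was selected on the measured level of AREG, which was among the genes raised most by androgen depletion in the parental line. That contrast, CSS against FBS in Rv1-WT under vehicle, is therefore given as a description with no test, for AREG and for the other members alike. For AREG the same holds for the SNX631-treated Rv1-WT libraries, since the choice was not shown to be independent of them. The ligands are made as membrane-bound precursors and are released by ADAM proteases, after which they bind receptor tyrosine kinases. AREG, TGFA and EGF bind EGFR, whereas HBEGF, BTC and EREG also bind ERBB4. ERBB2 has no ligand of its own and acts as a partner of the other receptors, and ERBB3 binds neuregulins and has little kinase activity. The receptors signal through the RAS-ERK and PI3K-AKT pathways, which in prostate cancer cells can sustain growth when androgen is low.

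RNA was sequenced from 48 cultures of 22Rv1, a human castration-resistant prostate cancer cell line, in 16 groups of 3 biological replicates. The parental cells are called Rv1-WT, and Rv1-Luc cells are their subline with firefly luciferase from a lentivirus. Both were grown with fetal bovine serum (FBS) or with androgen-depleted charcoal-stripped serum (CSS). The other 4 lines derive from 22Rv1 cells in which CDK8 and CDK19, the paralogous kinases of the Mediator complex, had both been knocked out by CRISPR/Cas9, and they were grown in FBS only. dKO-8 and dKO-19 express wild-type CDK8 or CDK19 from a lentivirus, whereas a kinase-inactive mutant of the same protein is expressed in dKO-8M and dKO-19M. Each line received 500 nM SNX631, a CDK8/19 inhibitor, or 0.1% DMSO as vehicle for 72 hours. Each derivative is represented by 1 transduced line, so kinase status and line of origin cannot be told apart.

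Library totals ran from 13231751 to 31496020 counts, with 13231751 to 18202330 in Rv1-WT and 19524106 to 27323739 in Rv1-Luc. Levels are given as CPM, the counts per 1000000 counts of a library scaled with its TMM factor, and differences as log2 fold changes ± standard error. Differences were tested with edgeR's quasi-likelihood test over 20009 genes, and a gene was called at FDR under 0.01 with a fold change over 1.5. Replicate 1 of dKO-19M under vehicle stood apart from its partners, from which its counts differed by a chi-square over degrees of freedom of 16.5 and 16, while any other replicate pair reached at most 9.15. CDK8 RNA averaged 26.8 CPM in Rv1-WT and 68.7 and 123 CPM in dKO-8 and dKO-8M, and CDK19 RNA averaged 149 CPM in Rv1-WT and 510 and 332 CPM in dKO-19 and dKO-19M (FBS, vehicle). Since RNA from an edited gene is still counted, these values follow the re-expressed kinase and do not check the knockout. They also do not give protein. In the study's Western blot, CDK8 protein in dKO-8 was below the parental level, whereas CDK19 protein in dKO-19 and dKO-19M was far above it. All 6 luminal prostate markers were detected, with a summed level of 2195 to 4933 CPM by group, and the 3 basal markers KRT5, KRT14 and TP63 stayed under 1 CPM in every group.

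EREG, AREG and BTC lie next to each other on chromosome 4, in a cluster of EGF-family genes that also holds EPGN. In GRCh38, EREG spans chr4:74365143-74388751, AREG chr4:74445134-74455009 and BTC chr4:74744759-74794686, of which BTC is on the minus strand. EGF lies on the same chromosome outside the cluster (chr4:109912884-110012266), HBEGF on chr5:140332843-140346631 and TGFA on chr2:70447280-70554193. The receptors are at chr7:55019021-55211628 (EGFR), chr17:39687914-39730426 (ERBB2), chr12:56076799-56103505 (ERBB3) and chr2:211375717-212538841 (ERBB4). The promoters of the 3 clustered members are shown because these neighbours were all higher in CSS than in FBS in Rv1-WT, although EREG only by a few counts. Higher levels in CSS were not particular to the cluster, since under vehicle 8 of the 9 members other than EREG had them. Each sequence is the 250 bases before the gene's start in RefSeq (GRCh38.p14), read 5′ to 3′ on the strand of the gene. Capitals mark the cyclic AMP response element TGACGTCA or its core TGACG, and the xenobiotic response element core GCGTG, on either strand.
AREG, chr4:74444886-74445135, plus strand: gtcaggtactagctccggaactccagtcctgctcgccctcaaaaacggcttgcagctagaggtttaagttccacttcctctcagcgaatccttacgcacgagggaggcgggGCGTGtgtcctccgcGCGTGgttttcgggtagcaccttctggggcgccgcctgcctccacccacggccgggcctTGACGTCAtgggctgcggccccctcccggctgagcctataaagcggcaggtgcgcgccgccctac
EREG, chr4:74364895-74365144, plus strand: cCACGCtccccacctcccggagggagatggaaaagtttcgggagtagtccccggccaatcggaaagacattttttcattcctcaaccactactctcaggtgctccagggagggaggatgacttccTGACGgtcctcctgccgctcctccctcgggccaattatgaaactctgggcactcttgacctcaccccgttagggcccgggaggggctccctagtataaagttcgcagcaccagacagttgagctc
BTC, chr4:74794524-74794773, minus strand: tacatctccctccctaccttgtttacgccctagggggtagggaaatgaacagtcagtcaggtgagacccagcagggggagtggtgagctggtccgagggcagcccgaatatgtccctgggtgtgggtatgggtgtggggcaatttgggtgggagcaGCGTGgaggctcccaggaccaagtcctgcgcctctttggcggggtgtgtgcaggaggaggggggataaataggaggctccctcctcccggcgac

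In the 250 bases before the start, AREG was the single member of the 9 with a RefSeq promoter entry that held the full element TGACGTCA, at position -65 from the gene's start, and 1.65% of all 35116 promoters held it. The core TGACG, which is contained in the full element, was present in AREG, EREG and TGFA and in 21.2% of all promoters. GCGTG was present in 5 of the 9, namely AREG at -139 and -124, EREG at -249, BTC at -94, TGFA at -51 and ERBB4 at -19, and in 32.2% of all promoters. The full androgen response element was found in no member and in 0.00285% of all promoters, and its part TGTTCT in TGFA and ERBB4 and in 12.4% of all promoters. The GC box GGGCGG was present in AREG, EGFR, ERBB4, HBEGF and TGFA and in 42.6% of all promoters, and the AP-1 site TGANTCA in EGF, EGFR and ERBB2 and in 6.57%. The 9 members have 11 entries in all, since EGFR and TGFA have 2 start sites each, positions are counted from the start site of the entry, and a match in either entry was counted. Both AP-1 matches of EGFR are in the entry that begins at base 55109589, inside the gene, and the entry at the start of the gene had 0. Both strands were searched for every motif, and these matches describe the letters of the windows only.

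Of the 10 members 9 passed the filter on low counts and were tested in full or in part, and the same number passed it without the 6 Rv1-WT CSS libraries. EREG, a low-affinity ligand of EGFR and ERBB4, was not tested. It had 6, 3 and 2 counts in the Rv1-WT CSS vehicle libraries and 1, 2 and 5 counts in the Rv1-WT CSS SNX631 libraries, and all 6 libraries thus held at least 1 count. Elsewhere 40 of 42 libraries had 0 counts and the other 2, both of dKO-19, had 2 counts each. A total of 19 counts over 6 libraries is too few to measure a level, and a count of 0 in a library allows up to 3 counts.

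Per kilobase of exon, ERBB3 was the most abundant member in 16 of 16 groups. The means over 48 libraries were 29 CPM per kb for ERBB3, 11.6 for ERBB2, 6.70 for EGFR and 1.82 for ERBB4. Among ligands, the means were 1.70 CPM per kb for BTC, 1.35 for HBEGF, 0.862 for AREG, 0.533 for TGFA, 0.137 for EGF and 0.00455 for EREG. The receptors together came to 35.4 to 71.3 CPM per kb by group and the ligands to 2.79 to 12.3 CPM per kb. BTC was the most abundant ligand per kilobase in 12 of 16 groups, AREG in the 2 Rv1-WT CSS groups (6.92 CPM per kb under vehicle and 3.56 under SNX631) and HBEGF in the 2 dKO-19 groups (4.02 and 4.49). Under vehicle the summed ligand level was 3.65 CPM per kb for Rv1-WT cells in FBS and 12.3 in CSS, against 3.60 and 3.13 for Rv1-Luc cells. AREG, on which the family was chosen, made up 0.571 and 6.92 CPM per kb of the Rv1-WT sums and 0.284 and 0.270 of the Rv1-Luc sums. The rise of the Rv1-WT sum is therefore mostly that of AREG and is a description only. ERBB3, ERBB2 and HBEGF had fractional counts, which reads shared with another feature give, in 52.1%, 50% and 14.6% of libraries. The share of their reads that was shared was not measured.

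**Figure D1:**
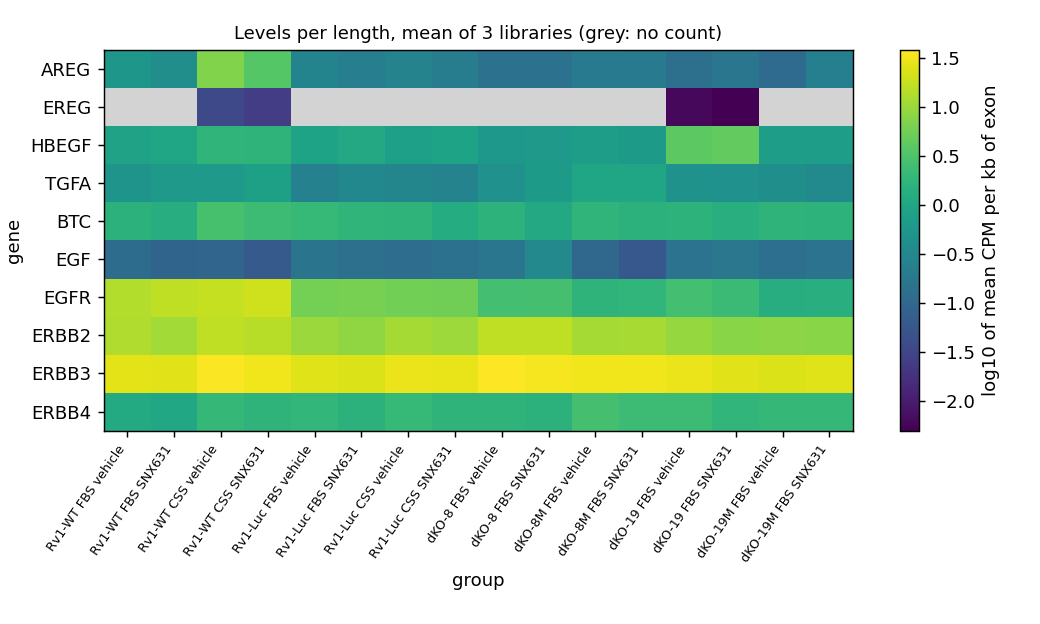
Mean level of each member (rows) in each group of 3 libraries (columns), as log10 of CPM per kilobase of exon, with grey where no library had a count. ERBB3 is the highest row in every group, AREG reaches 6.92 CPM per kb in Rv1-WT in CSS under vehicle, and HBEGF reaches 4.49 in dKO-19.

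The first comparison asked how the family responded to androgen depletion in Rv1-WT. AREG, a ligand of EGFR, was at 1.23, 1.07 and 0.519 CPM in FBS and at 13, 10.5 and 10.7 CPM in CSS under vehicle. All 3 CSS libraries were above all 3 FBS libraries, by 3.58 on the log2 scale. Under SNX631 the levels were 0.965, 0.516 and 0.593 CPM in FBS and 6.82, 5.44 and 5.33 CPM in CSS. The groups again did not overlap, and the difference was 3.06 ± 0.27, likewise given with no test. In bulk RNA, more transcript per cell and more cells that express a gene cannot be told apart. Counts behind these values were 7 to 21 per library in Rv1-WT FBS and 98 to 234 in Rv1-WT CSS.

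**Figure D2:**
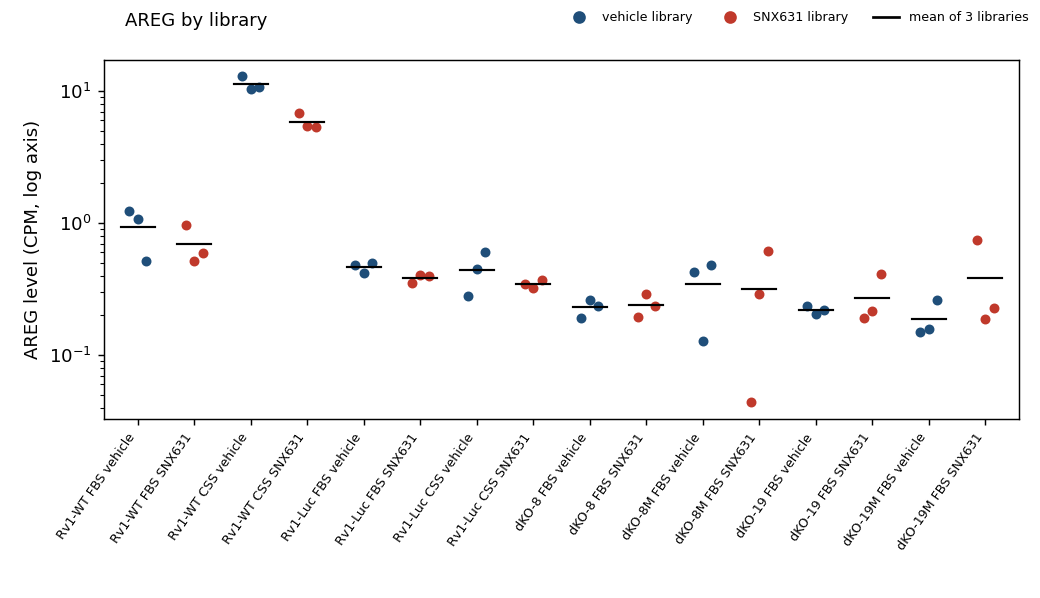
AREG level in CPM (log axis) in each of the 48 libraries by group, with blue points for vehicle, red points for SNX631 and a line at the mean of 3 libraries. The 6 Rv1-WT CSS libraries lie between 5.33 and 13 CPM, and the other 42 libraries lie between 0.0439 and 1.23 CPM.

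HBEGF and BTC, which bind both EGFR and ERBB4, also had higher levels in CSS. HBEGF was at 2.23, 3.08 and 2.60 CPM in FBS and 5.78, 4.21 and 5.65 CPM in CSS under vehicle, with no overlap. Under SNX631 it was at 2.53, 3.25 and 3.34 CPM in FBS and 5.44, 4.69 and 5.27 CPM in CSS, a rise of 0.75 ± 0.16 (edgeR FDR = 9.51e-05). BTC was at 5.23, 4.28 and 3.83 CPM in FBS and 9.06, 6.94 and 8.34 CPM in CSS under vehicle, again without overlap. With SNX631 its levels were 3.62, 3.17 and 4.37 CPM in FBS and 6.65, 6.24 and 6.85 CPM in CSS, and it rose by 0.80 ± 0.14 (edgeR FDR = 2.9e-06). TGFA, another ligand of EGFR, did not pass the test under SNX631 (0.36 ± 0.20, FDR = 0.139), and neither did EGF, the prototype of the family (-0.51 ± 0.41, FDR = 0.345).

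ERBB4, the receptor for HBEGF, BTC and neuregulins, was the receptor with the largest difference between media. It was at 15.3, 12.4 and 13.1 CPM in FBS and at 22.3, 20.9 and 23.0 CPM in CSS under SNX631, with no overlap, and rose by 0.69 ± 0.09 (edgeR FDR = 5.53e-09). Under vehicle the difference was 0.71, from 16.9, 15 and 13.8 CPM in FBS to 25.6, 24.5 and 25.0 CPM in CSS. The other receptors had FDR under 0.01 but stayed below the 1.5-fold limit under SNX631, at 0.39 ± 0.04 for ERBB2, 0.29 ± 0.05 for EGFR and 0.27 ± 0.05 for ERBB3. Thus 3 of the 8 members other than AREG were called in Rv1-WT under SNX631, all of them higher, where 7.83% of all genes were called. The median over the 8 members other than AREG was 0.38 against 0.01 over all genes. Under vehicle, where no member was tested, 8 of 9 members were higher in CSS, EGF being the exception at -0.35.

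In Rv1-Luc, no member was called on androgen depletion. The count was 0 of 9 under vehicle, where 1.49% of all genes were called by edgeR, and 0 of 9 under SNX631, where 1.51% were called. Of these 18 tests 7 had an unadjusted p under 0.05, and DESeq2 called 0. AREG was at 0.486, 0.419 and 0.499 CPM in FBS and at 0.281, 0.451 and 0.601 CPM in CSS under vehicle. These ranges overlapped, with a difference of -0.12 ± 0.41 (FDR = 0.899). ERBB2 and ERBB3 had FDR under 0.01 in Rv1-Luc as well, with differences of 0.21 ± 0.04 and 0.28 ± 0.05 under vehicle that were below the fold limit. BTC was lower in CSS, by -0.30 ± 0.12 (FDR = 0.0996) under vehicle and -0.47 ± 0.13 (FDR = 0.0109) under SNX631, and did not pass the test.

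**Figure D3:**
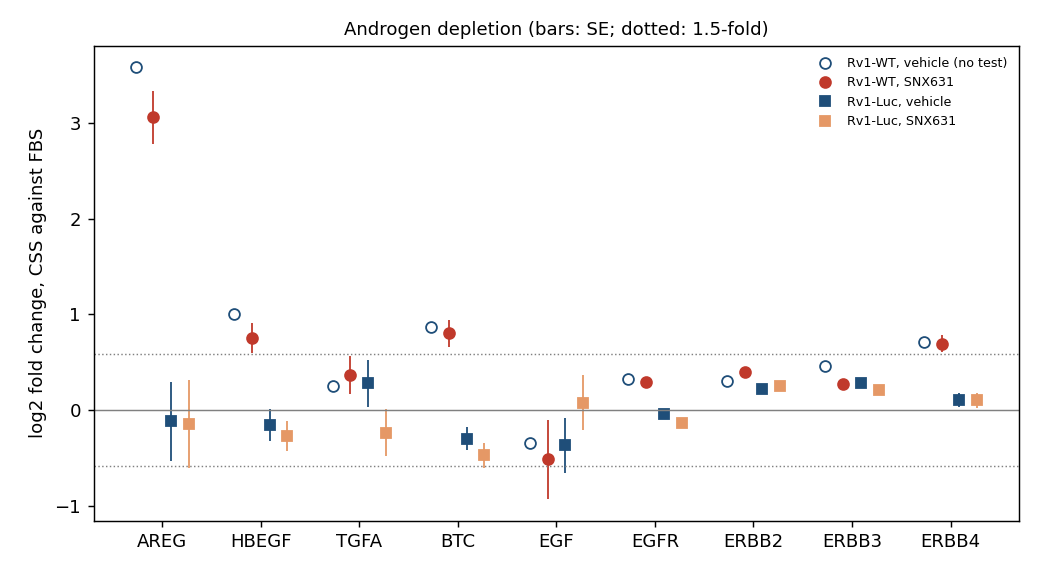
Log2 fold change of the 9 tested members in CSS against FBS, with circles for Rv1-WT and squares for Rv1-Luc, bars for the standard error and dotted lines at 1.5-fold. Open circles are Rv1-WT under vehicle, which were not tested. AREG lies at 3.58 and 3.06 in Rv1-WT and at -0.12 and -0.15 in Rv1-Luc.

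The depletion effects of the sublines were then compared directly under SNX631. The effect on AREG was lower in Rv1-Luc by -3.21 ± 0.56, given with no test. The effect was also lower in Rv1-Luc than in Rv1-WT for BTC (-1.28 ± 0.19, edgeR FDR = 4.07e-07) and HBEGF (-1.02 ± 0.23, FDR = 0.000303). Both genes rose in Rv1-WT, whereas their means in Rv1-Luc under SNX631 were lower in CSS than in FBS. These means were 4.91 CPM in FBS and 3.53 CPM in CSS for BTC, and 3.30 and 2.75 CPM for HBEGF, and neither fall was called. For ERBB4 the difference of effects was -0.59 ± 0.12 (FDR = 0.000104), close to the fold limit, and it fell below the limit when any of 6 libraries was left out (-0.51 to -0.58). These 3 of the 8 members other than AREG were called where 5.84% of all genes were called. EGFR had a difference of effects of -0.43 ± 0.07 (FDR = 1.76e-06), below the fold limit. KLK3, an androgen receptor target, averaged 10.7 CPM (FBS) and 8.51 CPM (CSS) for Rv1-WT and 8.83 and 4.68 CPM for Rv1-Luc under vehicle.

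The genes around the receptors were examined as 5 lists with 52 genes, of which 48 were tested. The lists were chosen with earlier results of these data known. Their shares, here and below, are therefore descriptions and no independent support. Upon depletion in Rv1-WT under SNX631, 11 of the 48 rose and 0 fell, or 22.9% against 7.83% of all genes. Negative regulators of the pathway, many of them induced by ERK itself, accounted for 6 of the 11, out of 14, with a list median of 0.52. Among them were the ERK phosphatases DUSP5 (1.19 ± 0.31, edgeR FDR = 0.00111), DUSP6 (1.15 ± 0.10, FDR = 1.15e-14) and DUSP4 (0.88 ± 0.07, FDR = 8.98e-17). Of 8 tested ERK-induced genes 4 rose, also with a list median of 0.52, and these included the immediate-early genes IER3 (1.40 ± 0.16, FDR = 2.41e-10) and EGR1 (1.36 ± 0.12, FDR = 4.27e-14) and the ETS factor ETV5 (1.02 ± 0.09, FDR = 5.53e-14). The remaining gene was SOS1, the exchange factor that activates RAS (0.61 ± 0.08, FDR = 2.21e-08), while 0 of 6 shedding genes and 0 of 2 tested other ligands were called.

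In Rv1-Luc under vehicle, 4 of the 48 genes rose and 1 fell upon depletion, or 10.4% against 1.49% of all genes. EGR1 (0.76 ± 0.14, edgeR FDR = 4.49e-05), ETV5 (0.73 ± 0.11, FDR = 2.61e-06), DUSP6 (0.73 ± 0.14, FDR = 0.000144) and ETV4 (0.68 ± 0.11, FDR = 3.57e-06) rose. DUSP4 fell by 0.83 ± 0.08 on the log2 scale (FDR = 5.01e-12), in the opposite direction to Rv1-WT. Under SNX631, DUSP4 was the single gene of the lists called in Rv1-Luc, or 2.08% against 1.51% of all genes. The depletion effect under SNX631 was lower in Rv1-Luc than in Rv1-WT for 11 of the 48 genes and higher for 0, or 22.9% against 5.84% of all genes, with the largest differences for DUSP4 (-1.71 ± 0.10, FDR = 1.09e-20), DUSP5 (-1.63 ± 0.43, FDR = 0.0026) and IER3 (-1.21 ± 0.26, FDR = 0.000163).

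The next comparison set the levels of Rv1-Luc against those of Rv1-WT, in the same libraries that gave the depletion effects. EGFR, the receptor for most of the ligands, was at 172, 175 and 168 CPM in Rv1-WT and at 70.5, 74.4 and 75.0 CPM in Rv1-Luc in FBS under vehicle. In CSS it was at 228, 214 and 204 CPM in Rv1-WT and at 66.8, 71.4 and 75.0 CPM in Rv1-Luc. No library of the sublines overlapped. EGFR was lower in Rv1-Luc in all 4 settings, by -1.23 ± 0.05 (edgeR FDR = 3.16e-29) and -1.42 ± 0.05 in FBS and by -1.6 ± 0.05 and -1.85 ± 0.05 (FDR = 2.94e-38) in CSS, under vehicle and SNX631 respectively. TGFA was also lower in all 4 settings, with differences of -0.98 to -1.02 in 3 settings and -1.58 ± 0.22 (FDR = 7.87e-09) in CSS under SNX631. In FBS under vehicle it was at 3.23, 1.41 and 2.85 CPM in Rv1-WT and at 1.17, 1.47 and 1.09 CPM in Rv1-Luc, ranges that overlapped, and without replicate 1 of Rv1-WT the difference was -0.78 (FDR = 0.0195).

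HBEGF and BTC passed the test between the sublines in CSS and not in FBS. In CSS HBEGF was lower in Rv1-Luc by -1.13 ± 0.15 under vehicle (edgeR FDR = 3.79e-09) and -0.90 ± 0.15 under SNX631 (FDR = 1e-06), and BTC by -0.81 ± 0.12 (FDR = 4.2e-08) and -0.90 ± 0.13 (FDR = 4.46e-08). In FBS BTC had the opposite sign, at 0.35 ± 0.13 (FDR = 0.023) and 0.38 ± 0.14 (FDR = 0.0186) under vehicle and SNX631. AREG in CSS under SNX631 was at 0.343, 0.325 and 0.373 CPM in Rv1-Luc against 6.82, 5.44 and 5.33 CPM in Rv1-WT, a difference of -4.05 ± 0.29 without overlap, and in FBS under SNX631 the difference was -0.85 ± 0.42, both given with no test. EGF was higher in Rv1-Luc in CSS under SNX631, by 1.18 ± 0.36 (FDR = 0.00335), a call that was lost without replicate 2 of Rv1-WT (0.97, FDR = 0.0305) or replicate 3 of Rv1-Luc (0.97, FDR = 0.0326). ERBB4 was higher in Rv1-Luc in FBS under vehicle, at 21.3, 24.9 and 26.0 CPM against 16.9, 15 and 13.8 CPM, by 0.66 ± 0.09 (FDR = 3.61e-09).

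In all, of the 8 members other than AREG 3 differed between the sublines in FBS under vehicle and 2 in FBS under SNX631, where 17.8% and 18.3% of all genes were called. In CSS 4 were called under vehicle and 5 under SNX631, where 31.1% and 28.5% of all genes were called. ERBB2 had FDR under 0.01 in all 4 settings, with differences of -0.36 to -0.51 that were below the fold limit, whereas ERBB3 ranged from -0.09 to -0.27. Among the pathway genes, 22 of 48 were lower and 4 higher in Rv1-Luc in CSS under vehicle, or 54.2% against 31.1% of all genes. In CSS under SNX631 the share was 47.9% against 28.5%. In FBS it was 16.7% under each treatment, near the 17.8% and 18.3% of all genes. TIMP3, an inhibitor of ADAM proteases, differed most in CSS under vehicle (-3.03 ± 0.71, edgeR FDR = 0.000182), though at only 0.0623 CPM in Rv1-Luc and 0.615 CPM in Rv1-WT. EGR1 (-2.52 ± 0.11, FDR = 6.32e-29), EPHA4 (-2.38 ± 0.30, FDR = 3.03e-10) and DUSP4 (-2.20 ± 0.07, FDR = 1.58e-33) followed. NRG3, a ligand of ERBB4, was lower in all 4 settings (-0.68 to -1.10), and ADAM9, a shedding protease, in 3 of them (-0.67 to -0.90). Other genes were higher in Rv1-Luc. In CSS under vehicle these included RHBDF2 of the shedding list (1.03 ± 0.11, FDR = 6.49e-12) and PLCG1 (0.92 ± 0.05, FDR = 1.45e-24). RHBDF1 was higher under SNX631 in FBS (0.78 ± 0.08) and CSS (1.06 ± 0.08). Of the 6 shedding genes, 2 were higher and 2 lower in CSS under each treatment. Markers of other cells moved with the subline as well. The summed level of 6 immune markers was 0.682 to 1.81 CPM in Rv1-WT and 2.31 to 12.2 CPM in Rv1-Luc, where IGKC ranged from 0.716 to 8.17 CPM against 0 in every other line, while PTPRC, CD3E and CD68 stayed under 1 CPM in every group. The summed level of 5 fibroblast markers was 15 to 26.5 CPM in Rv1-WT, 9.31 to 15.8 CPM in Rv1-Luc and 3.02 to 6.10 CPM in the 4 dKO derivatives, with COL1A2 and DCN under 1 CPM in every group. The part of these markers and of the lower library totals of Rv1-WT in the differences between sublines was not tested.

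Across the 6 lines EGFR levels separated largely by line. Rv1-WT libraries ranged from 168 to 264 CPM, Rv1-Luc from 66.8 to 82.9, dKO-8 from 31.7 to 35.2, dKO-19 from 26.5 to 34.3, dKO-8M from 20.0 to 23.1 and dKO-19M from 15.4 to 18.2. Only dKO-8 and dKO-19 overlapped as neighbours in this order. The levels of ERBB3 in contrast ranged from 199 to 351 CPM over all 48 libraries, and those of ERBB2 from 78.4 to 173 CPM. No test was run between Rv1-WT and the dKO derivatives, which differ in both the knockout and the vectors.

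**Figure D4:**
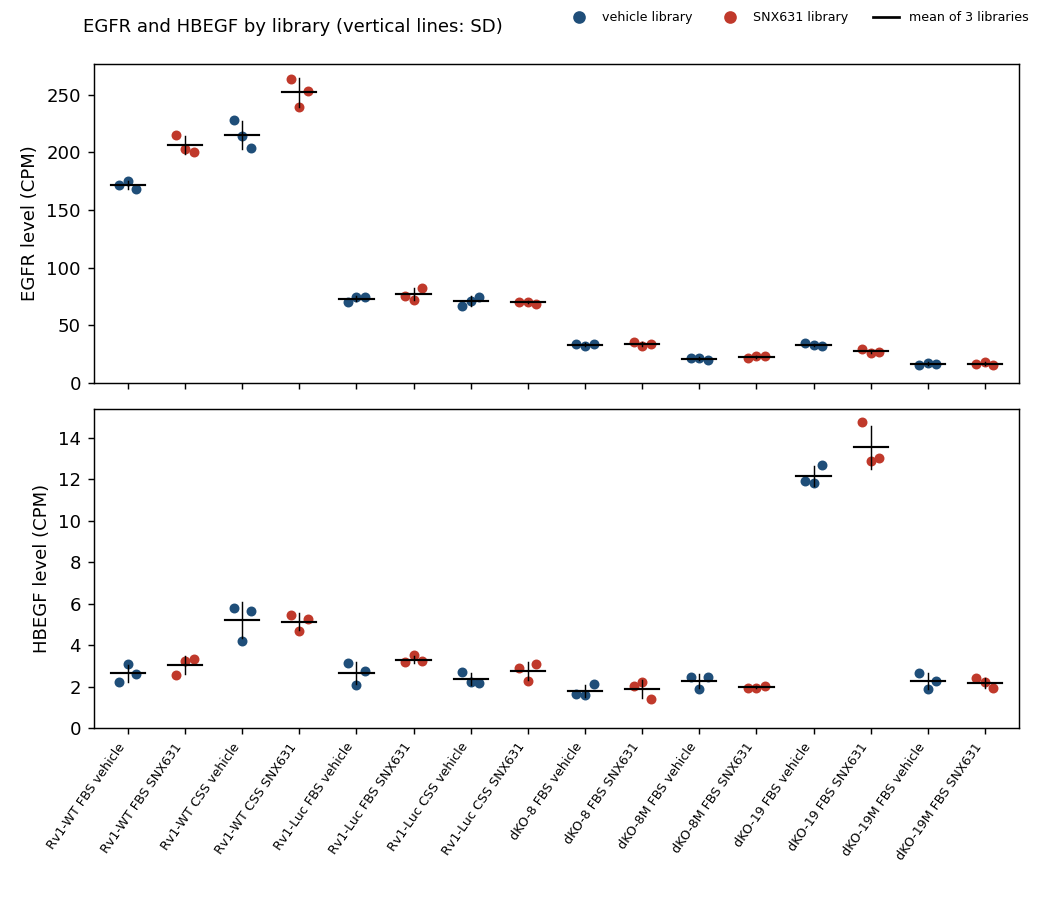
EGFR (top) and HBEGF (bottom) levels in CPM in each of the 48 libraries by group, with blue points for vehicle, red points for SNX631, horizontal lines at means of 3 libraries and vertical lines for the SD. EGFR is highest in Rv1-WT (168 to 264 CPM) and lowest in dKO-19M (15.4 to 18.2 CPM), and HBEGF in dKO-19 (11.8 to 14.7 CPM) lies above all other libraries (1.41 to 5.78 CPM).

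Kinase-inactive derivatives were then compared with wild-type derivatives, to ask which members differed with kinase activity. The largest difference was that of HBEGF between dKO-19M and dKO-19. HBEGF was at 11.9, 11.8 and 12.7 CPM in dKO-19 and at 2.63, 1.89 and 2.27 CPM in dKO-19M under vehicle, and at 14.7, 12.9 and 13 CPM against 2.40, 2.20 and 1.92 CPM under SNX631. The 6 dKO-19 libraries were above all 42 others, and HBEGF was lower in dKO-19M by -2.42 ± 0.13 (edgeR FDR = 6.84e-23) and -2.64 ± 0.14 (FDR = 1.3e-23). Without replicate 1 of dKO-19M the value under vehicle was -2.54 (FDR = 3.97e-22). SNX631 against vehicle gave a difference in HBEGF of 0.16 ± 0.11 in dKO-19 (FDR = 0.34), and dKO-8M against dKO-8 under vehicle gave 0.34 ± 0.18 (FDR = 0.169), neither of which passed the test. EGFR was lower in dKO-19M by -0.99 ± 0.06 (FDR = 7.74e-20) under vehicle and -0.71 ± 0.07 (FDR = 4.89e-13) under SNX631. Thus 2 of 9 members were called under each treatment, where 7.6% and 7.18% of all genes were called.

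Between dKO-8M and dKO-8, 3 of 9 members were called under vehicle and 1 of 9 under SNX631, where 7.03% and 5.05% of all genes were called. TGFA was at 2.74, 2.46 and 1.69 CPM in dKO-8 and at 5.10, 5.63 and 4.06 CPM in dKO-8M under vehicle, without overlap, and was higher in dKO-8M by 1.14 ± 0.18 (edgeR FDR = 1.26e-06). ERBB4 was higher as well, at 35.9, 35.8 and 35.2 CPM against 21.1, 21.8 and 23.3 CPM (0.69 ± 0.07, FDR = 2.94e-11), and EGFR was lower, at 22.1, 21.4 and 20.0 CPM against 34.1, 31.7 and 34.2 CPM (-0.65 ± 0.06, FDR = 3.94e-13). Under SNX631 the differences of these genes had the same signs but missed a limit, at 0.55 ± 0.17 for TGFA (FDR = 0.0151), 0.57 ± 0.08 for ERBB4 (FDR = 2.1e-08) and -0.57 ± 0.06 for EGFR (FDR = 3.48e-11). The gene called under SNX631 was EGF, at -2.49 ± 0.29 (FDR = 5.96e-10).

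Of the pathway genes, 3 had higher and 6 had lower levels in dKO-19M compared with dKO-19 under vehicle, and 0 had higher and 4 had lower levels under SNX631. These were 18.8% and 8.33% of the 48 genes, against 7.6% and 7.18% of all genes. NRG3 was lower in both (-2.01 ± 0.31, edgeR FDR = 2.63e-07, and -2.13 ± 0.35, FDR = 1.99e-06), and so were ADAM9 (-0.80 ± 0.04, FDR = 1.56e-25, and -0.84 ± 0.04, FDR = 2.88e-26) and DUSP4 (-0.93 ± 0.08, FDR = 2.02e-15, and -0.67 ± 0.08, FDR = 8.79e-10). DUSP6 was higher under vehicle (1.27 ± 0.16, FDR = 1.52e-09), and so was ETV5 (1.08 ± 0.13, FDR = 5.84e-10), but neither was called under SNX631. The ERK-induced genes EPHA4 (-1.66 ± 0.33, FDR = 3.77e-05) and EGR1 (-1.15 ± 0.15, FDR = 6.39e-09) were lower under vehicle. Of the 8 tested ERK-induced genes, 2 were thus higher and 3 lower under vehicle. The vehicle values include replicate 1 of dKO-19M, which stood apart, and the pathway genes were not examined without it. Between dKO-8M and dKO-8, 0 pathway genes were higher, and 3 were lower under vehicle and 4 under SNX631, or 6.25% and 8.33% against 7.03% and 5.05% of all genes. EGR1 (-1.89 ± 0.15, FDR = 1.05e-15), IER3 (-0.93 ± 0.29, FDR = 0.00899) and EPHA2 (-0.63 ± 0.07, FDR = 7.26e-11) made up the former.

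The last comparison was that of SNX631 with vehicle. In Rv1-WT, 0 of 8 tested members were called in FBS and 0 of 8 in CSS, where 2.39% and 4.23% of all genes were called. In Rv1-Luc, 0 of 9 were called in FBS and 0 of 9 in CSS, with 3.67% and 4.06% of all genes. In dKO-8, 1 of 9 was called where 1.71% of all genes were called, and in dKO-19 0 of 9 where 3.41% were called. Over these 6 settings with an active kinase, edgeR called 1 of 52 tests, DESeq2 called 1, and 22 had an unadjusted p under 0.05. In the kinase-inactive derivatives, 0 of 9 were called in dKO-8M (0.015% of all genes) and 0 of 9 in dKO-19M (0.09%). Of these 18 tests 2 had an unadjusted p under 0.05, and DESeq2 called 0, giving no adjusted p for 4.

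The called member was EGF in dKO-8. It was at 1.2, 1.1 and 0.785 CPM under vehicle and at 2.23, 1.70 and 2.26 CPM under SNX631, a difference without overlap that rested on 20 to 25 and 41 to 57 counts per library. EGF rose by 1.02 ± 0.24 (edgeR FDR = 0.00181). In dKO-8M it was at 0.490, 0.888 and 0.481 CPM under vehicle and 0.483, 0.291 and 0.307 CPM under SNX631 (-0.77 ± 0.36, FDR = 0.486), and the difference of the SNX631 effects was 1.79 ± 0.44 (FDR = 0.00505). The rise lost its call without replicate 3 under vehicle (0.84, FDR = 0.0367) or without replicate 1 (0.96, FDR = 0.0148) or 3 (0.95, FDR = 0.0128) under SNX631. The difference of effects lost its call without any of 6 libraries (1.44 to 1.72, FDR = 0.0125 to 0.0683). In the other 5 settings with an active kinase, EGF ranged from -0.54 to 0.24 and did not pass the test.

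AREG in Rv1-WT was lower under SNX631 in both media, from 13, 10.5 and 10.7 CPM to 6.82, 5.44 and 5.33 CPM in CSS, with no overlap, and from 1.23, 1.07 and 0.519 CPM to 0.965, 0.516 and 0.593 CPM in FBS, with overlap. The log2 differences were -0.96 and -0.44, and were not tested because the vehicle libraries served to choose the gene. In the other 4 settings with an active kinase AREG ranged from -0.31 to 0.27 with standard errors of 0.42 to 0.57, at levels of 0.191 to 0.601 CPM. BTC, ERBB2, ERBB3 and ERBB4 had differences below 0 in 6 of 6 settings with an active kinase. BTC ranged from -0.19 to -0.51 and had FDR under 0.01 in dKO-8 alone (-0.51 ± 0.14, edgeR FDR = 0.00713). ERBB2 ranged from -0.03 to -0.26 and reached that limit in 4 settings, with a lowest FDR of 7.57e-06 in dKO-19 (-0.26 ± 0.04). All these differences were below the 1.5-fold limit. Falls were also seen in the kinase-inactive derivatives, where no member was called. BTC was at 4.85 CPM under vehicle and 4.44 CPM under SNX631 in dKO-8M, and differed by -0.10 in dKO-19M. ERBB4 was at 2.74 and 2.31 CPM per kb in dKO-8M, against a difference of 0.04 in dKO-19M. ERBB2 and ERBB3 were not lower in dKO-8M (119 and 124 CPM, 287 and 289 CPM) and differed by -0.01 and 0.02 in dKO-19M.

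EGFR responded in different directions between settings, and no response passed the fold limit. It was higher under SNX631 in Rv1-WT, by 0.26 ± 0.05 in FBS (edgeR FDR = 3.06e-05) and 0.23 ± 0.05 in CSS (FDR = 0.00012), and lower in dKO-19, by -0.27 ± 0.06 (FDR = 0.000592). In FBS its levels in Rv1-WT were 172, 175 and 168 CPM under vehicle and 215, 203 and 201 CPM under SNX631, and those in dKO-19 were 34.3, 32.8 and 32.5 CPM and 29.3, 26.5 and 27.0 CPM. ERBB4 was lower in dKO-19, by -0.38 ± 0.08 (FDR = 0.000121), against 0.04 ± 0.08 in dKO-19M, and the difference of these effects was -0.42 ± 0.11 (FDR = 0.00578), below the fold limit. Without replicate 1 of dKO-19M under vehicle, the library that stood apart, the effect in dKO-19M was -0.05 and the difference of effects -0.33 (FDR = 0.0291). HBEGF and TGFA passed the test in no setting, with differences of -0.03 to 0.31 and of -0.16 to 0.50 over the 6 settings with an active kinase.

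**Figure D5:**
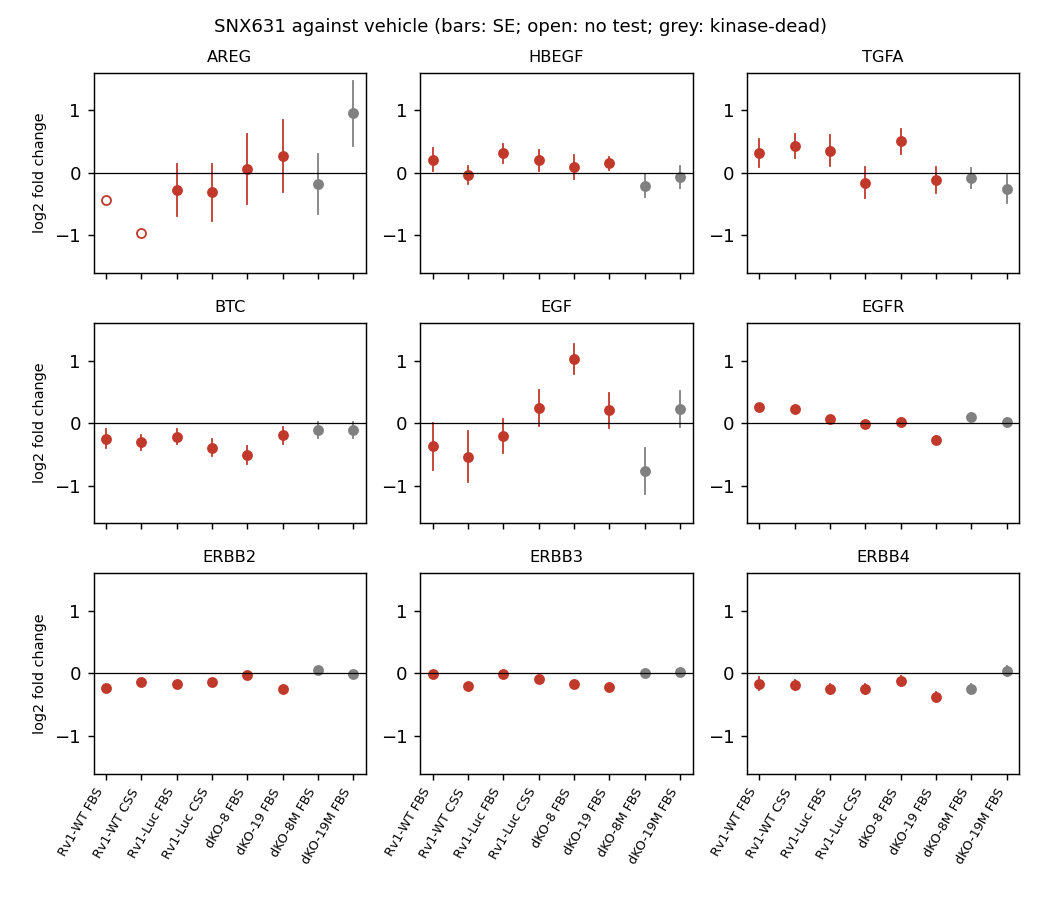
Log2 fold change of each tested member under SNX631 against vehicle in the 8 combinations of line and medium, with bars for the standard error, open symbols where no test was made and grey for the kinase-inactive derivatives. EGF in dKO-8 (1.02) is the single value that was called, and BTC, ERBB2, ERBB3 and ERBB4 lie below 0 in all 6 settings with an active kinase. BTC lies below 0 in dKO-8M and dKO-19M as well, and ERBB4 in dKO-8M.

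The SNX631 effects were also compared between settings. For CSS minus FBS, 0 of 8 members differed in Rv1-WT and 0 of 9 in Rv1-Luc, where 0.295% and 0.08% of all genes were called, and 0 of 8 differed between the sublines in FBS, where 0.175% were called. For dKO-8 minus dKO-8M, 1 of 9 was called, which was EGF, where 0.905% of all genes were called. For dKO-19 minus dKO-19M and for dKO-19 minus dKO-8, 0 of 9 each were called, where 2.07% and 0.885% of all genes were called. Over the 7 tested differences of effects, edgeR called 5 of 61 tests, with AREG among the 5 as a description only. Of the 61, 21 had an unadjusted p under 0.05. DESeq2 called 4 and gave no adjusted p for 5, EGF in dKO-8 minus dKO-8M among them.

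Among the pathway genes, EGR1 was lower under SNX631 in all 6 settings with an active kinase, from -0.99 ± 0.17 in Rv1-Luc in FBS (edgeR FDR = 9.14e-06) to -1.57 ± 0.15 in dKO-8 (FDR = 1.16e-12). DUSP6 was higher in Rv1-WT in FBS (0.65 ± 0.12, FDR = 3.08e-05) and CSS (0.63 ± 0.09, FDR = 3.28e-07), in Rv1-Luc in FBS (0.66 ± 0.14, FDR = 0.000332) and in dKO-19 (0.77 ± 0.17, FDR = 0.00056). ETV4 was higher in Rv1-Luc in FBS (0.81 ± 0.11, FDR = 1.38e-08) and in dKO-19 (0.86 ± 0.17, FDR = 5.94e-05). Between 1 and 5 of the 48 pathway genes were called in each of these 6 settings, or 2.08% to 10.4% against 1.71% to 4.23% of all genes. In dKO-8M and dKO-19M 0 were called, where 0.015% and 0.09% of all genes were. The difference of the SNX631 effects on EGR1 between dKO-8 and dKO-8M was -1.23 ± 0.26 (FDR = 0.000954), and that on DUSP6 between dKO-19 and dKO-19M was 0.94 ± 0.22 (FDR = 0.00206). For dKO-19 minus dKO-19M the difference on EGR1 was not called, and the 1 ERK-induced gene called there was ETV5 (0.88 ± 0.18, FDR = 0.000307). The values for dKO-19 minus dKO-19M include replicate 1 of dKO-19M under vehicle, which stood apart, and were not examined without it.

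Genes with a pattern like that of a member were sought among 14049 genes with a mean of at least 1 CPM, by Pearson's r over the 16 group means of log2 CPM, as a description. For AREG these were DEPDC4 (r = 0.965), SH3BGR (0.965), SKA1 (0.964), PMS2CL (0.963) and SEC22B4P (0.963). In Rv1-WT under vehicle, DEPDC4 had a mean of 7.44 CPM with FBS and 14.8 CPM with CSS, and SH3BGR 2.27 and 8.72 CPM. The closest gene to HBEGF was SOX6 (0.950), to EGFR ZNF688 (0.991), to TGFA ACP3 (0.938), to ERBB3 ITGA9 (0.948), to ERBB2 NR2F2 (0.909), to ERBB4 POGZ (0.863) and to BTC ZNF195 (0.858). The points share lines, so that a pattern across lines is enough to give a high value.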

How the data were processed

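RNA-Seq was carried out on 48 libraries in 16 groups of 3, grouped by the sample titles. Per the submitters' processing notes, cutadapt 2.8, FastQC, STAR 2.7.2b and featureCounts from Subread 2.0.3 were used, with builds GRCh38.p13 and GRCm39. The annotation release was not given in the sources used here. The values deposited by the authors are expected counts per gene, not scaled to depth, since 81.6% of nonzero values are whole and the others carry fractions from shared reads. They were rounded to whole numbers here. The 2 transgene entries were left out.

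Genes were filtered with filterByExpr (minimum count 10, minimum total 15), and 20009 genes were fitted with edgeR 4.0.16 (TMM, robust quasi-likelihood, 1 mean per group, 32 residual degrees of freedom, R 4.3.3), with limma 3.58.1, in 1 fit of all 48 libraries. P-values are two-sided and adjusted by Benjamini-Hochberg over all genes in each comparison. TMM factors ran from 0.911 to 1.07 and the common biological coefficient of variation was 4.20%. The standard error is the log2 fold change over the square root of F. The fit was tested on simulated data. The members and lists were chosen with earlier results of these data known. AREG was not tested in any contrast that uses the 6 Rv1-WT vehicle libraries, and no member in CSS against FBS there. AREG was fitted in the contrasts of the Rv1-WT SNX631 libraries, but no p-value is given for it there. Pathway genes were named where called, at most 3 per list and comparison by size of change. Alternatives were DESeq2 1.42.0, RLE or library-size scaling, other filters and thresholds, thinning, a replicate block, fits of the compared libraries alone and leaving out each library. Positions are from GENCODE 29, promoters from RefSeq.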

Additional observations from a re-analysis of the deposited data

Results flagged for a closer look

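The difference between the sublines in their response to androgen depletion under SNX631 was past the limits of the fit for 3 of the 8 members other than AREG, as an effect in Rv1-Luc minus that in Rv1-WT. It was -1.28 for BTC, -1.02 for HBEGF and -0.59 for ERBB4 on the log2 scale (edgeR FDR = 4.07e-07, 0.000303 and 0.000104), and -3.21 for AREG, whose value is a description because androgen depletion in Rv1-WT served to choose it. The levels of IGKC and JCHAIN also separated these sublines, and their part in the difference was not tested. The difference of the SNX631 effects on EGF between dKO-8 and dKO-8M was 1.79 (edgeR FDR = 0.00505), at 6 to 57 counts per library.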

How the results depend on the processing

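Of 4427 values of members under alternatives, 4324 kept their side of the limits, 38 lost a call and 65 gained one, and 0 called and 154 uncalled values changed sign. The counts below include AREG, whose own calls are a description only. Without AREG, 3 members were called in Rv1-WT under SNX631 and 3 for the difference of CSS effects under SNX631. Between the sublines in CSS under SNX631, 5 were called without it. RLE scaling, library-size scaling, DESeq2, no filter, the fit of the compared libraries alone, thinning and the replicate block moved no count of calls by over 1.5 times. FDR under 0.05 with no fold limit gave 18 calls instead of 1 under SNX631 with an active kinase, 5 instead of 0 on depletion in Rv1-Luc, 7 instead of 4 in Rv1-WT under SNX631, 24 instead of 15 between sublines, 18 instead of 8 between kinase-inactive and wild-type derivatives and 12 instead of 5 for differences of effects. A test against a 1.5-fold change (glmTreat) gave 0, 0, 1, 7, 4 and 2. The 1 on depletion in Rv1-WT under SNX631 was AREG, which is no support because that rise served to choose it. HBEGF, BTC and ERBB4 lost their calls there (glmTreat FDR = 0.742, 0.378 and 0.633). HBEGF and ERBB4 also lost theirs for the difference of CSS effects under SNX631. With a mean of at least 1 CPM required, EGF was not tested, which left 0 calls under SNX631. Leaving out 1 library gave 0 to 1 calls under SNX631 with an active kinase, 0 to 0 without, 0 to 0 on depletion in Rv1-Luc, 4 to 4 in Rv1-WT, 14 to 16 between sublines, 8 to 9 between derivatives, 4 to 5 for differences of effects and 7 to 8 members higher in CSS in Rv1-WT under vehicle. Replicate numbers are shared between groups but do not pair the samples, with correlations of deviations from -0.0786 to 0.229 and 0 of 20 comparisons with all 3 pairs over 0.1. With the replicate block the counts were 1, 0, 0, 4, 15, 8 and 5. Depth limits EREG, EGF and AREG outside Rv1-WT in CSS.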
